A study of Mus musculus with 39 samples.

Results

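The genes described here encode the subunits of the oxidative phosphorylation system, together with some of the factors that assemble them, and they were followed in sorted DRG neurons of newborn mice and in whole DRG of adult mice. Members were all probe sets of the Affymetrix Mouse Genome array annotated to a single gene whose symbol starts with Nduf, Uqcr, Atp5 or Sdha to Sdhd, or is a Cox symbol numbered 4 to 8 with at most a letter, a digit and a letter after it. This name rule, which used no measured value, gave 183 of 45037 probe sets, and these stand for 92 of 18193 genes. Complex and class were assigned from the symbol alone. On this basis 80 of the 92 genes encode subunits and 12 encode assembly factors of complexes I and II (Ndufaf1 to Ndufaf8 and Sdhaf1 to Sdhaf4). Ndufa4 is thus counted as a complex I subunit and Cox7a2l as a complex IV subunit, whatever their place in the chain. Complex I had 44 genes, complex II 8, complex III 8, complex IV 15 and complex V 17. The rule does not reach Cox4i1, Cox4i2 and Cyc1, whose values are given separately.

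The respiratory chain sits in the inner mitochondrial membrane. Complex I (NADH dehydrogenase) and complex II (succinate dehydrogenase) pass electrons to ubiquinone, complex III (cytochrome bc1) passes them to cytochrome c, and complex IV (cytochrome c oxidase) passes them to oxygen, while complex V (ATP synthase) uses the proton gradient built by complexes I, III and IV to make ATP. Proprioceptive DRG neurons are large, heavily myelinated cells that fire at high rates, and they depend on the muscle-derived neurotrophin NT3 through its receptor TrkC.

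The study asked how gene expression of proprioceptors relates to NT3 signaling. In 16 samples, TrkC GFPon cells (proprioceptors) and TrkC GFPoff cells (the other cells of the ganglion) were sorted from pooled L1-L6 DRG of p0 mice of 4 genotypes, with 2 arrays for each genotype and population. In 11 more samples they were sorted at p0 from L1 or L5 DRG separately, with 2 arrays for L1 TrkC GFPon cells and 3 for each other group. The last 12 samples were whole L1 or L5 DRG of adult mice that had either no wheel or 5 weeks with a voluntary running wheel, with 3 arrays per group. All sorted groups carried the TrkCGFP transgene, a bacterial artificial chromosome with GFP under TrkC regulatory elements, on a 129/C57Bl6 background. Wild-type mice carried nothing else. Bax-/- mice lacked the proapoptotic gene Bax, NT3-/-Bax-/- mice lacked NT3 as well and were compared with Bax-/- mice, because without Bax the proprioceptors survive the loss of NT3. The mlcNT3 mice expressed extra NT3 in skeletal muscle under a myosin light chain promoter. The adult mice were labelled wild type, again on 129/C57Bl6, whereas the methods give male C57Bl6 mice for the running experiment, and the adult titles carry a TrkC sign although no sorting is described. The labels do not say whether arrays of a group came from separate animals, so p-values measure the spread between these samples, which may be technical. In all these bulk samples, a lower number of cells of a type and less RNA per cell cannot be told apart.

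Array medians lay between 6.02 and 6.18 on the log2 scale, and arrays of a group correlated at 0.972 or above over all probe sets. The annotation assigned no probe set to Bax or Ntf3 alone, so the deleted genes were not analysed here. The 5 measured proprioceptor markers averaged 10.27 to 10.37 (log2) in wild-type TrkC GFPon arrays and 5.213 to 5.285 in TrkC GFPoff arrays, and 7 nociceptor markers ran the other way, with 11.27 to 11.28 in wild-type TrkC GFPoff arrays. The NT3-/-Bax-/- populations were less well separated by the same markers. Their proprioceptor markers averaged 8.628 to 9.331 in TrkC GFPon arrays and 6.514 to 6.603 in TrkC GFPoff arrays. Ntrk3 itself, which encodes TrkC (probe set 1433825_at), was at 9.438 and 9.814 in NT3-/-Bax-/- TrkC GFPoff arrays and at 6.51 and 6.819 in Bax-/- TrkC GFPoff arrays.

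Subunit genes were higher in TrkC GFPon than in TrkC GFPoff cells wherever NT3 was present. In L1 DRG at p0, the mean log2 level of the 80 subunit genes was 11.56 to 11.64 in TrkC GFPon arrays and 10.98 to 11.05 in TrkC GFPoff arrays. In L5 DRG it was 11.5 to 11.63 and 11.05 to 11.07. In pooled lumbar DRG it was 11.39 to 11.47 and 10.98 to 11.06 in wild-type mice, and 11.3 to 11.61 and 10.96 to 11.04 in Bax-/- mice. None of these 4 pairs of populations overlapped. In mlcNT3 mice the ranges were 11.11 to 11.45 and 10.93 to 10.98, again without overlap. In NT3-/-Bax-/- mice they were 10.9 to 10.98 and 10.8 to 10.96, so that the populations overlapped, and the TrkC GFPon arrays lay below every TrkC GFPon array of the other genotypes.

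**Figure D1:**
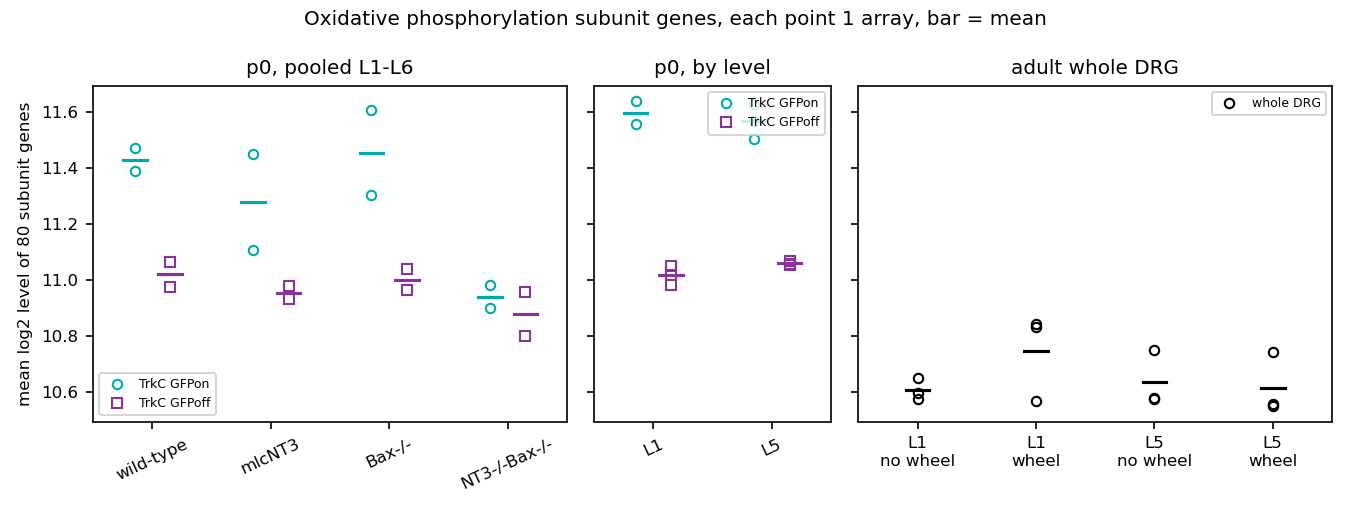
Mean log2 level of the 80 subunit genes in every array, with 1 point per array, for the pooled lumbar p0 populations, the L1 and L5 p0 populations and adult whole DRG. TrkC GFPon points lie above TrkC GFPoff points in each p0 group except NT3-/-Bax-/-, where they run from 10.9 to 10.98 against 10.8 to 10.96.

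At L1, 63 of the 92 genes were higher in TrkC GFPon cells and 0 were lower at an adjusted p under 0.05 (limma, adjusted over all 45037 probe sets), where 11.9% of all genes were called higher and 11.8% lower. The 92 genes had a median log2 difference of 0.563 beside 0.0147 over all genes, and 89 of them were above 0. At an unadjusted p under 0.05, 74 were higher and 0 lower. Counts at this unadjusted threshold, here and below, are given without the share of all genes or probe sets. The same holds for counts called after an array was left out or under another processing. They are therefore not read as results about the members. At L5, 61 genes were higher and 0 lower, with 13.1% of all genes higher and 13% lower, a median of 0.473 beside 0.0337, and 91 of 92 differences above 0. The L1 and L5 calls used different arrays and shared 55 genes, 87.3% of the L1 calls and 90.2% of the L5 calls. Both came from 1 fit with a shared spread, so they are not independent. With 63 and 61 of 92 genes called, many would be shared in any case. Counted as probe sets, 116 of 183 members were higher and 1 lower at L1 (9.03% and 8.92% of all probe sets), and 106 were higher and 1 lower at L5 (9.91% and 10%). Of the called genes named here and recomputed, 8 of 16 at L1 and 10 of 17 at L5 passed whichever array was left out. Leaving out L1 TrkC GFPon replicate 1 lowered the number of member probe sets called at L1 from 117 to 75.

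In the pooled arrays fewer members passed. Each genotype had 2 against 2 arrays, and all 16 arrays shared the estimate of the spread. On average 350 cells were sorted per pooled sample, and 100 per sample at L1 and L5. The part of these conditions in the counts was not tested. In wild-type mice 16 genes were higher and 1 was lower (6.77% and 5.16% of all genes), with a median log2 difference of 0.399 over the 92 genes beside -0.0632 over all genes. In Bax-/- mice 16 were higher and 0 lower (5.32% and 5.06% of all genes), with a median of 0.462 beside -0.0239. At an unadjusted p under 0.05, 92 member probe sets were higher and 1 lower in Bax-/- mice, a count given without the share of all probe sets. In mlcNT3 mice 8 were higher and 0 lower (5.41% and 8.09% of all genes), with a median of 0.316 beside -0.0135. The member probe sets whose arrays did not overlap and that were higher in TrkC GFPon cells made up 73.8% in wild-type, 73.8% in Bax-/- and 56.8% in mlcNT3 mice, whereas the same share over all probe sets was 24.6%, 21.8% and 26.3%. Across the L1, L5, wild-type, Bax-/- and mlcNT3 comparisons, 77 of the 92 genes were above 0 in all 5. These comparisons come from 2 fits, so they are not independent. Counts of genes above or below 0, here and elsewhere, are given without the share of all genes. Counted as probe sets, 30 members were higher and 1 lower in wild-type mice (5.12% and 3.83% of all probe sets), 29 and 0 in Bax-/- mice (4.05% and 3.77%) and 17 and 1 in mlcNT3 mice (4.18% and 5.84%). These pooled counts rested on single arrays. The 31 member probe sets called in wild-type mice became 2 or 3 when any of the 4 wild-type arrays was left out, the 29 in Bax-/- mice became 5 without TrkC GFPon replicate 1, 4 and 15 without either TrkC GFPoff array and 51 without TrkC GFPon replicate 2, and the 18 in mlcNT3 mice became 4 without mlcNT3 TrkC GFPon replicate 1 or either mlcNT3 TrkC GFPoff array and 32 without either Bax-/- TrkC GFPon array, which shares only the estimate of the spread. Among the called genes named here, Ndufaf5 alone of 12 recomputed in wild-type mice passed whichever of the 16 arrays was left out, and in Bax-/- mice Atp5g1, Ndufaf5 and Sdhaf3 did so among 7.

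**Figure D2:**
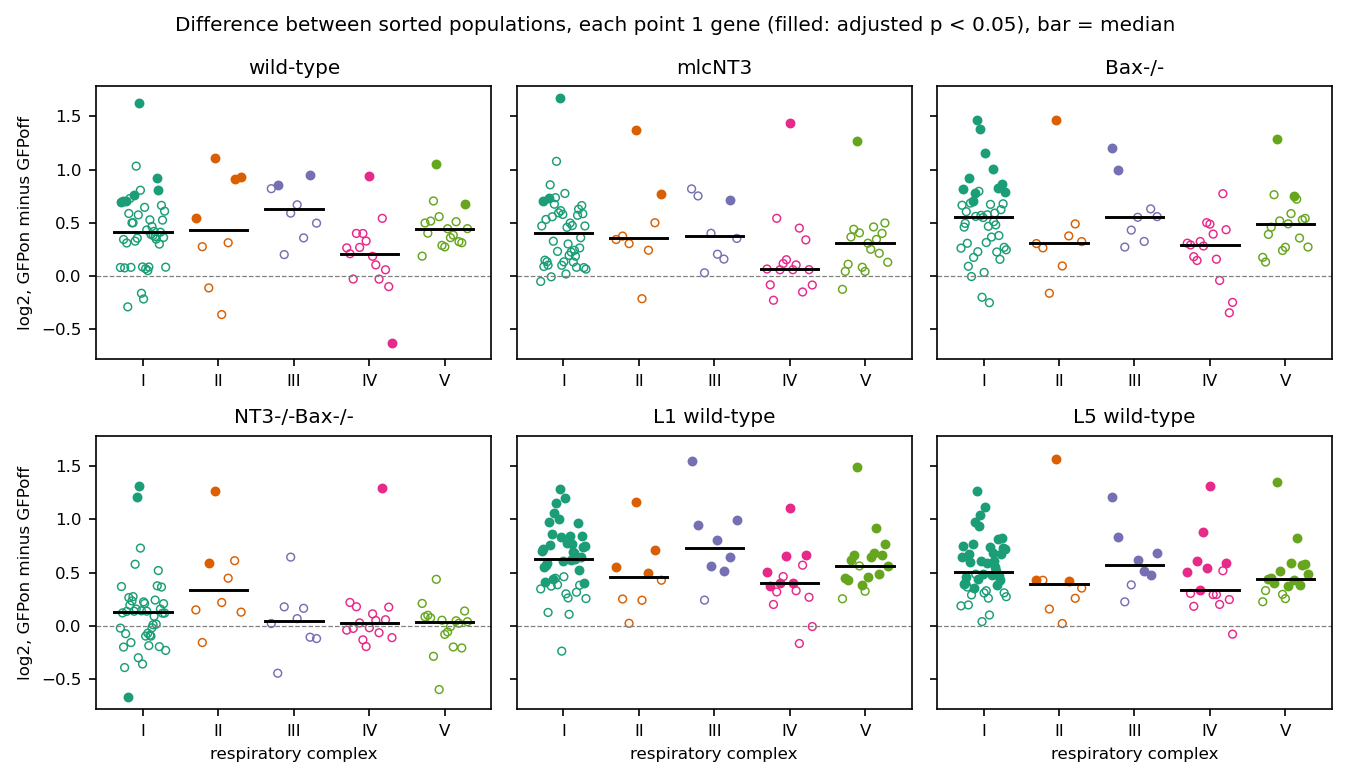
Log2 difference between TrkC GFPon and TrkC GFPoff cells for every member gene, by complex, in 6 panels (wild-type, Bax-/-, mlcNT3, NT3-/-Bax-/-, L1 and L5). Assembly factors are drawn within complexes I and II. Filled points passed an adjusted p of 0.05 and bars are medians over all genes of a complex, assembly factors included. Over all member genes the median lay above 0 in each panel. It was close to 0 in NT3-/-Bax-/- mice, where the median of the 80 subunits was 0.0535.

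Among the subunits of complex I, the entry point for electrons from NADH, 26 of 36 were higher in TrkC GFPon cells at L1 (median log2 difference 0.623) and 26 of 36 at L5 (0.497). Ndufb10 and Ndufab1 had the largest differences. Ndufab1, the acyl carrier protein of the complex (probe set 1428159_s_at), was at 12.29 and 12.29 log2 in L1 TrkC GFPon arrays and at 11.18, 11.22 and 11.28 in L1 TrkC GFPoff arrays. Its L1 difference was 1.06 ± 0.114 (SE, adjusted p = 6.61e-05) and its L5 difference was 0.97 ± 0.102 (adjusted p = 4.81e-05), with no overlap between arrays in either. Ndufb10, an accessory subunit of the membrane arm, differed by 1.20 ± 0.147 at L1 and by 1.11 ± 0.131 at L5. Of the core subunits, Ndufs1, which carries iron-sulfur clusters, differed by 0.97 at L1, 0.81 at L5 and 0.92 in pooled wild-type arrays, and each of these passed. Not all probe sets followed. For Ndufs4, 1 of 4 probe sets (1418117_at) was called lower at L1, with a log2 difference of -0.66 (adjusted p = 0.0105), while 1 other was called higher.

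Assembly factors of complexes I and II were also higher in TrkC GFPon cells. At L1 6 of 12 and at L5 7 of 12 were higher, with medians of 0.529 and 0.484. Ndufaf5, a methyltransferase needed early in complex I assembly (1428745_a_at), was at 9.96 and 9.80 in wild-type TrkC GFPon arrays and at 8.11 and 8.41 in TrkC GFPoff arrays. Its differences were 1.62 ± 0.236 in wild-type, 1.38 in Bax-/-, 1.67 in mlcNT3, 1.29 at L1 and 1.04 at L5 mice, with adjusted p from 0.0006 to 0.00297. Sdhaf3, which helps to mature the iron-sulfur subunit of complex II (1456614_at), was at 10.28, 10.11 and 10.58 in L5 TrkC GFPon arrays and at 8.52, 8.60 and 9.13 in L5 TrkC GFPoff arrays. It differed by 1.57 ± 0.195 there (adjusted p = 0.000171) and by 1.17 ± 0.218 at L1. Both genes were called higher in all 5 comparisons, and their arrays did not overlap in those comparisons.

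In complex II, whose 4 subunits also carry out a step of the citric acid cycle, the wild-type differences were the largest of the 5 complexes by median (0.727). Sdhd, a membrane anchor, was at 11.13 and 11.03 in wild-type TrkC GFPon arrays and 10.19 and 10.11 in TrkC GFPoff arrays, a difference of 0.93 ± 0.215 (adjusted p = 0.0171). Sdhc, the other membrane anchor, differed by 0.91 ± 0.233 (adjusted p = 0.0294), and Sdha, the flavoprotein, by 0.55 ± 0.153 (adjusted p = 0.0439). Sdhb, the iron-sulfur protein, differed by 0.31 in wild-type mice and did not pass there. At L1 and L5 it differed by 0.50 ± 0.121 (adjusted p = 0.0144) and by 0.42 (adjusted p = 0.0168). Sdha passed at both levels (0.55 and 0.43), Sdhc only at L1 (0.72, with 0.26 at L5) and Sdhd at neither (0.43 and 0.35). The test of the difference between the levels called none of the 4.

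In complex III, which hands electrons to cytochrome c, 7 of 8 genes were higher at L1 (median 0.729) and 6 of 8 at L5 (0.568). Uqcr10, a small subunit (1424364_a_at), was at 10.99 and 10.55 in L1 TrkC GFPon arrays and at 9.20, 9.31 and 9.15 in TrkC GFPoff arrays. The difference of 1.55 ± 0.166 (adjusted p = 6.55e-05) was the largest of the subunits at L1, and at L5 it was 1.21 ± 0.148. Uqcr11, the smallest subunit of the complex (1448292_at), differed by 0.94 ± 0.145 at L1, 0.84 ± 0.13 at L5, 0.85 ± 0.221 in wild-type and 0.99 in Bax-/- mice, and by 0.75 in mlcNT3 mice, where it missed the threshold (adjusted p = 0.0508). Uqcrq differed by 0.99 at L1 and 0.68 at L5, and the core protein gene Uqcrc2 by 0.81 and 0.62, and each of these passed.

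Counting subunits only, complex IV had the smallest share of called genes, 7 of 15 at L1 and 7 of 15 at L5, with medians of 0.399 and 0.335. Several of its subunits have a form known from heart and skeletal muscle and a form of other tissues. Cox7a1, the muscle form of subunit 7a, was at 5.83 and 5.89 in L1 TrkC GFPon arrays and at 4.39, 4.95 and 4.91 in TrkC GFPoff arrays, a difference of 1.11 ± 0.287 (adjusted p = 0.0198). At L5 it differed by 1.31 ± 0.256, in wild-type mice by 0.94 ± 0.202 and in mlcNT3 mice by 1.44, while in Bax-/- mice the difference was 0.49 and did not pass (adjusted p = 0.204). The probe set was dim, and its level in L1 and wild-type arrays lay below the array medians given above. Cox7a2, the other form, was at 13.54 and 13.42 in L1 TrkC GFPon arrays and at 13.14, 13.07 and 13.04 in TrkC GFPoff arrays, without overlap. It passed at L1 (0.40, adjusted p = 0.0309), a call lost without any 1 of the 5 L1 arrays, and not at L5 (0.29, adjusted p = 0.0684). Cox8a, the form of subunit 8 in other tissues, differed by 0.67 at L1 (adjusted p = 0.00451) and 0.59 at L5 (adjusted p = 0.00448), and passed whichever array was left out. The muscle form Cox8b was dim, with 0.27 and 0.25, and passed at neither. Cox6a2, the muscle form of subunit 6a, passed at L5 (0.61), a call lost without any 1 of 6 of the 11 arrays, and not at L1 (0.32), and Cox6a1 passed at neither (0.20 and 0.18). Cox6b2, a testis form, passed at L5 (0.88) and not at L1 (0.46). Cox8c, a testis form, was the only member gene called lower in these 5 comparisons, in wild-type mice, at 7.37 and 7.52 in TrkC GFPon arrays against 8.08 and 8.07 in TrkC GFPoff arrays (-0.63, adjusted p = 0.012). Of the 6 probe sets of Cox5b, 3 were called higher and 1 lower at L5, the dim 1448514_at with a difference of -0.43 (adjusted p = 0.0409).

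In complex V, 14 of 17 genes were higher at L1 (median 0.562) and 13 of 17 at L5 (0.443), and Atp5g1 stood out. The membrane rotor of the ATP synthase is a ring of c subunits, and Atp5g1, Atp5g2 and Atp5g3 encode the same mature c subunit behind different import peptides. Atp5g1 (1416020_a_at) was at 11.88 and 11.66 in L1 TrkC GFPon arrays and at 10.37, 10.33 and 10.13 in TrkC GFPoff arrays. At L5 it was at 11.75, 11.74 and 11.75 in TrkC GFPon arrays and at 10.36, 10.34 and 10.50 in TrkC GFPoff arrays. The arrays did not overlap at either level, and the differences were 1.49 ± 0.13 (adjusted p = 1.41e-05) and 1.35 ± 0.116 (adjusted p = 1.16e-05), with 1.05 ± 0.235 in wild-type, 1.29 in Bax-/- and 1.27 in mlcNT3 mice. Atp5g3 (1454661_at) was at 13.54 and 13.54 in L1 TrkC GFPon arrays and at 13.18, 13.11 and 13.17 in TrkC GFPoff arrays. Atp5g2 (1415980_at) was at 9.92 and 9.54 in L1 TrkC GFPon arrays and at 9.31, 9.14 and 9.06 in TrkC GFPoff arrays. Among the other subunits, Atp5l, a membrane subunit, differed by 0.92 at L1 and 0.83 at L5, and Atp5o, which joins the rotor housing to the stalk, by 0.77 and 0.58, and both passed at both levels.

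The promoters of the 3 c subunit genes are shown because the genes code for the same mature protein while their differences between populations were of different size, and that of Ndufaf5 because it passed in every p0 comparison of TrkC GFPon with TrkC GFPoff cells. Each runs from 250 bases before to 50 bases after the annotated start, 5′ to 3′ on the gene's strand (RefSeq, GRCm38.p6). The windows are chr11:96075582-96075881 (minus strand) for Atp5g1, chr15:102670998-102671297 (minus) for Atp5g2, chr2:73911277-73911576 (minus) for Atp5g3 and chr2:140170396-140170695 (plus) for Ndufaf5. Capitals mark a match to 1 of the motifs searched on both strands.
Atp5g1: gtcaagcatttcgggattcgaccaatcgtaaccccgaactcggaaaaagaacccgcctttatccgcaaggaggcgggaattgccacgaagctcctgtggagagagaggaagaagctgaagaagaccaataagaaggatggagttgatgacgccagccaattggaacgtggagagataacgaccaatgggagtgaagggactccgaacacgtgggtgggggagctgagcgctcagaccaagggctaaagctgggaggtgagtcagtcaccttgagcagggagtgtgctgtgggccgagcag
Atp5g2: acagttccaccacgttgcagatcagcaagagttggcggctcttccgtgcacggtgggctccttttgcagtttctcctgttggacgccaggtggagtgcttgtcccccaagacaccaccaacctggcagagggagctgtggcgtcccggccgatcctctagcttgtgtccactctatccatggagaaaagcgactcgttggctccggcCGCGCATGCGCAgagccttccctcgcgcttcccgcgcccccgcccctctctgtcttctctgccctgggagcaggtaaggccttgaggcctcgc
Atp5g3: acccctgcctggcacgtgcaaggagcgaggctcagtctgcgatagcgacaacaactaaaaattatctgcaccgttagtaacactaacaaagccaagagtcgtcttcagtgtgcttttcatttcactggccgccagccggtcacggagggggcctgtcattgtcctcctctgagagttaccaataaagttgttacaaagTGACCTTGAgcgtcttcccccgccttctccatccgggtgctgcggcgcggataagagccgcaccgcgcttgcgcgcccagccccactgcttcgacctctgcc
Ndufaf5: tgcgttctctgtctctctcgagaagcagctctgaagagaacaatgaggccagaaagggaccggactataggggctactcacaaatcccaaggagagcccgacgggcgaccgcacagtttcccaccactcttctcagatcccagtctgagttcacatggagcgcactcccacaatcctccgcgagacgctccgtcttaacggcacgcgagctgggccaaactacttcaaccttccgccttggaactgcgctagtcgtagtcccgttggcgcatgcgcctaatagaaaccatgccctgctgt
Promoters were found for 78 of the 92 genes. The degenerate NRF1 consensus was in the windows of 11 of them (14.1%), namely Atp5c1, Atp5g2, Atp5l, Cox6a1, Ndufa6, Ndufa8, Ndufaf4, Ndufb4, Sdhaf4, Sdhd and Uqcrc1, and of 5.56% of the 14453 array genes with a promoter, all counted per gene. In Atp5g2 it matched on both strands at overlapping positions, which form the single run of capitals. The ERR motif TCAAGGTCA was in those of Atp5g3 and Sdhd (2.56%, with 0.401% of array genes), and the capitals of Atp5g3 show it on the opposite strand. The ETS motif ACCGGAAG was in 8 (10.3%, with 3.96% of array genes), the YY1 motif AAGATGG in 11 (14.1%, with 7.53%) and the CRE motif TGACGTCA in 3 (3.85%, with 2.92%). The window of Atp5g1 held none of these motifs. That of Ndufaf5 held none either with this NRF1 consensus, but it did match the narrower NRF1 pattern searched first. A match describes letters in a window and was not tested as a binding site.

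**Figure D3:**
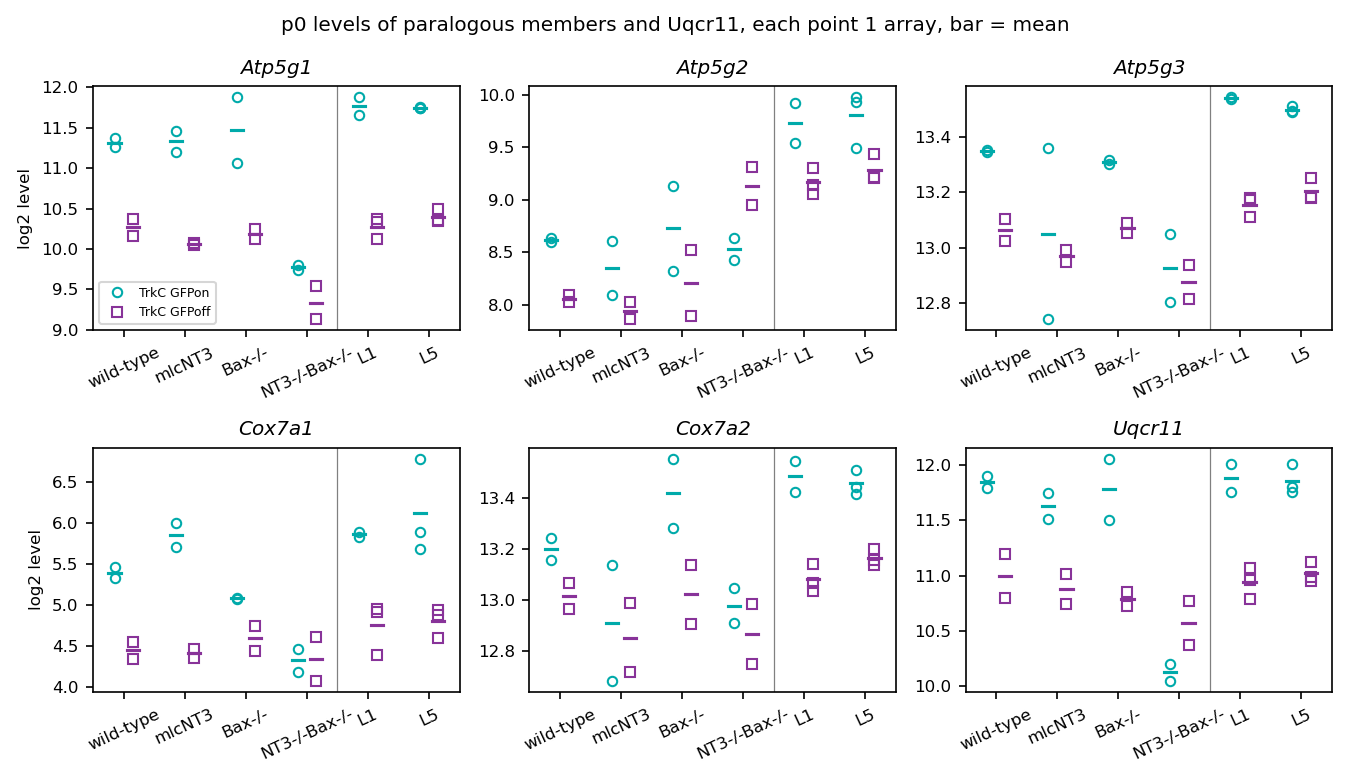
Log2 level in every array of the c subunit genes Atp5g1, Atp5g2 and Atp5g3, of Cox7a1 and Cox7a2, and of Uqcr11, in the p0 populations of the 4 genotypes and of L1 and L5. Circles are TrkC GFPon and squares TrkC GFPoff arrays, and for Atp5g1 the gap was 1.49 at L1 and 0.44 in NT3-/-Bax-/- mice.

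Without NT3 the difference between the populations was small. In NT3-/-Bax-/- mice 5 of the 92 genes were higher in TrkC GFPon cells and 1 was lower (12.4% and 11.7% of all genes), the median log2 difference was 0.0784 beside 0.0275 over all genes, and 58 genes were above 0 and 34 below. Non-overlapping member probe sets higher in TrkC GFPon cells made up 30.6%, with 27% over all probe sets. Counted as probe sets, 11 of 183 were higher and 1 lower (10.4% and 8.94% of all probe sets). Of the 80 subunits, only Cox7c was higher and only Ndufa4l2 was lower, and of the 6 calls those of Ndufaf3 and Ndufaf5 alone passed whichever array was left out. The other 4 called higher were the assembly factors Ndufaf3, Ndufaf5, Sdhaf2 and Sdhaf3. Ndufaf5 still differed by 1.31 (adjusted p = 0.00199) and Sdhaf3 by 1.27 (adjusted p = 0.00649). Atp5g1 was at 9.74 and 9.81 in TrkC GFPon arrays and at 9.54 and 9.13 in TrkC GFPoff arrays, a difference of 0.44 that did not pass (adjusted p = 0.24). Uqcr11 was at 10.05 and 10.20 in TrkC GFPon arrays and at 10.77 and 10.37 in TrkC GFPoff arrays, the reverse order of the other genotypes, with a difference of -0.45 (adjusted p = 0.195). Without NT3-/-Bax-/- TrkC GFPon replicate 1 the 12 member probe sets called became 6, and without TrkC GFPoff replicate 1 they became 5.

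NT3-/-Bax-/- and Bax-/- cells of the same population were then compared directly. In TrkC GFPon cells 0 of the 92 genes were higher and 40 were lower without NT3 (8.89% and 12.5% of all genes), with a median log2 difference of -0.521 beside -0.0218 over all genes and 84 of 92 genes below 0. In complex I 15 of 36 subunits were lower (median -0.561), in complex II 3 of 4 (-0.627), in complex III 6 of 8 (-0.815), in complex IV 3 of 15 (-0.374) and in complex V 7 of 17 (-0.509), and 6 of the 12 assembly factors were lower (-0.843). Of the 40 genes, 35 were among those higher in TrkC GFPon cells at L1 (87.5% of the 40 and 55.6% of the 63). At L5 it was 32 (80% of the 40 and 52.5% of the 61). The arrays of both levels were not used here. Of all 92 genes, 68.5% were called higher at L1 and 66.3% at L5, so many would be shared in any case. The comparison with wild-type TrkC GFPon cells gave 40 genes lower and 1 higher (17% and 11.4% of all genes), with a median of -0.49, and uses the same NT3-/-Bax-/- arrays. Counted as probe sets, 72 of 183 were lower and 3 higher against Bax-/- (9.17% and 9.05% of all probe sets), and 73 lower and 5 higher against wild-type cells (12.7% and 13.3%).

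The largest falls were those of Atp5g1, Ndufaf4 and Uqcr11, which lay within their errors of each other. Atp5g1 was at 11.88 and 11.07 in Bax-/- TrkC GFPon arrays and at 9.74 and 9.81 in NT3-/-Bax-/- TrkC GFPon arrays, which did not overlap, and the difference was -1.70 ± 0.235 (3.25-fold lower, adjusted p = 0.00043). Ndufaf4, an assembly factor of complex I (1427997_at), was at 10.65 and 10.77 in Bax-/- and at 8.68 and 9.39 in NT3-/-Bax-/- TrkC GFPon arrays, and fell by 1.67 on the log2 scale (adjusted p = 0.000379). Uqcr11 was at 12.06 and 11.50 and at 10.05 and 10.20, again without overlap, a difference of -1.66 (adjusted p = 0.000328). Without Bax-/- TrkC GFPon replicate 1 the differences were -1.29 for Atp5g1, -1.74 for Ndufaf4 and -1.38 for Uqcr11. Ndufaf5 (-1.52), Uqcr10 (-1.24), Sdhaf3 (-1.20) and Atp5mpl (-1.12), a small ATP synthase subunit, also passed. In complex II, Sdha (-0.48, adjusted p = 0.0494), Sdhc (-0.78) and Sdhd (-0.82) passed and Sdhb (-0.29, adjusted p = 0.382) did not. In complex IV, Cox7a1 (-0.75), Cox6c (-0.74) and Cox6b1 (-0.73) passed. The 3 member probe sets called higher were second probe sets of genes with a brighter one, Atp5g2 (1456128_at, 1.59), Cox7c (1459884_at, 1.08) and Atp5c1 (1438809_at, 1.01).

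The count of 75 member probe sets called in TrkC GFPon cells depended on single arrays and on the shared spread. It was 15 without Bax-/- TrkC GFPon replicate 1, 37 and 40 without either NT3-/-Bax-/- TrkC GFPon array and 88 without Bax-/- TrkC GFPon replicate 2, and 3 when only the 4 arrays compared were fitted. Of 14 called genes recomputed, Atp5g1, Atp5mpl, Ndufaf4, Ndufaf5 and Uqcr11 passed whichever array was left out. The median over members stayed between -0.667 and -0.369 when any array was left out.

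In TrkC GFPoff cells fewer members fell. Without NT3, 2 of the 92 genes were higher and 11 lower (10.2% and 15.3% of all genes), a share of lower genes near that of all genes, and the median log2 difference was -0.145 beside -0.0426. Of the 80 subunits 5 were lower and 2 higher, and of the 12 assembly factors 6 were lower (median -0.668). The 6 were Ndufaf1, Ndufaf3, Ndufaf5, Ndufaf6, Sdhaf2 and Sdhaf3, and the 5 subunits were Atp5g1 (-0.85), Ndufa9 (-0.63), Ndufb1 (-1.18), Sdhc (-0.90) and Uqcrc1 (-1.08). Ndufa4l2, a paralog of Ndufa4 induced by low oxygen (0.82, adjusted p = 0.0121), and Atp5g2 (0.92, adjusted p = 0.0339) were higher. Of 10 called genes recomputed, Ndufaf5 and Sdhaf2 alone passed whichever array was left out. Atp5g1, Ndufb1, Sdhc, Uqcrc1, Atp5g2, Ndufaf6 and Sdhaf3 lost the call without Bax-/- TrkC GFPoff replicate 1, and Ndufa4l2 without Bax-/- TrkC GFPoff replicate 2 or NT3-/-Bax-/- TrkC GFPoff replicate 2. Between the populations, 8 genes were lower in both, which is 20% of the 40 and 72.7% of the 11. Of all 92 genes, 43.5% were lower in TrkC GFPon cells and 12% in TrkC GFPoff cells. Ndufaf5 was at 8.78 and 8.77 in Bax-/- and at 7.50 and 7.14 in NT3-/-Bax-/- TrkC GFPoff arrays, a difference of -1.45, close to its -1.52 in TrkC GFPon cells. As probe sets, 16 of 183 were lower and 4 higher (11.8% and 9.91% of all probe sets). The 20 member probe sets called became 7 without Bax-/- TrkC GFPoff replicate 1 and 12 without replicate 2.

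**Figure D4:**
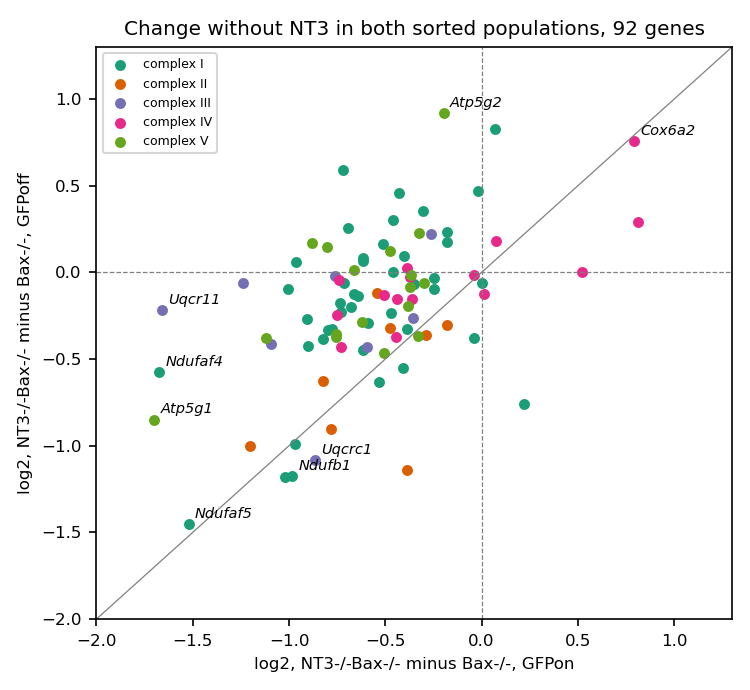
Log2 difference between NT3-/-Bax-/- and Bax-/- cells for the 92 genes, in TrkC GFPon cells on the x axis and in TrkC GFPoff cells on the y axis, with the diagonal of equal differences. Most points lie left of 0, with medians of -0.521 on the x axis and -0.145 on the y axis, and the assembly factor Ndufaf5 lies near the diagonal at -1.52 and -1.45.

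The difference between the 2 effects of NT3 loss was itself tested. It was below 0 for 74 of 92 genes, with a median of -0.381 beside 0.0425 over all genes, and passed for 2 genes (5.62% of all genes were called above 0 and 7.17% below), while 24 were lower and 2 higher at an unadjusted p under 0.05. The 2 genes were Uqcr11, with a difference of -1.44 ± 0.312 (adjusted p = 0.0122), and Ndufb7, an accessory subunit of complex I, with -1.02 ± 0.274 (adjusted p = 0.0347). Ndufb7 (1416417_a_at) was at 13.32 and 13.09 in Bax-/- and at 12.48 and 12.01 in NT3-/-Bax-/- TrkC GFPon arrays, but at 12.17 and 12.23 and at 12.37 and 12.16 in TrkC GFPoff arrays. In TrkC GFPon cells its genotypes did not overlap, and in TrkC GFPoff cells they did. For Atp5g1 the difference of -0.85 ± 0.333 did not pass (adjusted p = 0.144), nor did that of Uqcr10, -1.18 ± 0.377 (adjusted p = 0.0737). By complex, the medians were -0.476 for complex I, -0.0421 for complex II, -0.581 for complex III, -0.206 for complex IV, -0.403 for complex V and -0.0252 for the assembly factors. As probe sets, 3 of 183 were below 0 and 1 above (5.13% and 4.53% of all probe sets). The 4 member probe sets called became 1 without Bax-/- TrkC GFPoff replicate 1, 20 without Bax-/- TrkC GFPon replicate 2, 10 without NT3-/-Bax-/- TrkC GFPon replicate 1 and 7 without NT3-/-Bax-/- TrkC GFPoff replicate 2. The call of Uqcr11 was lost without Bax-/- TrkC GFPoff replicate 1, and that of Ndufb7 was lost without any 1 of 11 of the 16 arrays.

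Markers of other cells moved with the loss of NT3. In TrkC GFPoff cells, 6 of 10 Schwann and satellite glia markers were higher and 1 lower, with mean log2 levels of 11 to 11.2 in NT3-/-Bax-/- and 10 to 10.17 in Bax-/- arrays, and 6 of 6 endothelial markers were higher (8.16 to 8.265 and 5.68 to 6.115), while the 7 nociceptor markers ranged from 9.105 to 10.49 and from 11.09 to 11.18. In TrkC GFPon cells, 4 of 10 glial markers were lower (8.351 to 8.806 and 9.375 to 9.67), and 3 of 5 proprioceptor markers were lower. Macrophage markers lay far apart in the 2 NT3-/-Bax-/- TrkC GFPoff arrays. There C1qb was at 4.245 and 11.58, Csf1r at 8.18 and 13.02 and Ptprc at 4.208 and 9.347. In Bax-/- TrkC GFPoff arrays C1qb was at 4.898 and 6.517, Csf1r at 6.837 and 9.91 and Ptprc at 4.764 and 6.019. The part of these shifts in the differences of the subunit genes was not tested. Of the 10 markers listed as glial, S100b fell most in TrkC GFPon cells, from 10.85 to 6.40. It is part of the mean glial levels given above, so their fall is not read as a fall of glia. S100b was higher in TrkC GFPon than in TrkC GFPoff cells in wild-type mice (10.97 and 8.80), unlike the other called glial markers there, and Gfra3, Ednrb and Cdh19 did not pass without NT3 (0.07, 0.15 and 0.11).

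Markers of other cells also differed between TrkC GFPon and TrkC GFPoff cells. At L1, 5 of 6 endothelial markers were lower in TrkC GFPon cells and 0 higher, with mean log2 levels of 5.084 to 5.13 in TrkC GFPon and 6.526 to 7.171 in TrkC GFPoff arrays, and at L5 6 of 6 were lower (4.985 to 5.28 and 7.218 to 7.44). Of the 10 glial markers, 5 were lower and 1, S100b, higher at each level (9.137 to 9.529 and 10.04 to 10.37 at L1, 8.759 to 9.182 and 9.771 to 9.994 at L5). In the pooled arrays, 2 glial markers were lower and S100b higher in wild-type and in Bax-/- mice, 4 were lower and S100b higher in mlcNT3 mice, and all 10 were lower in NT3-/-Bax-/- mice, where all 6 endothelial markers were lower too. The part of these cells in the differences of the subunit genes was not tested.

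Deletion of Bax alone called no member gene in TrkC GFPon cells (0.187% of all genes were higher and 0.154% lower), with 5 genes higher and 0 lower at an unadjusted p under 0.05 and a median log2 difference of 0.0279. In TrkC GFPoff cells it called none either (0.077% higher and 0.044% lower over all genes), with 2 higher and 1 lower at an unadjusted p under 0.05. Among probe sets, 1 member was higher and 1 lower in TrkC GFPon cells (0.34% and 0.16% of all probe sets) and 0 higher and 1 lower in TrkC GFPoff cells (0.113% and 0.0644%). Ndufab1 1428160_at was higher in TrkC GFPon cells (1.48, adjusted p = 0.0446), and the dim Atp5g2 1456128_at was lower in TrkC GFPon (-1.19, adjusted p = 0.0151) and in TrkC GFPoff cells (-1.09, adjusted p = 0.0328). Without either wild-type TrkC GFPon array both of the first calls were lost, and the last was lost without any 1 of the wild-type, mlcNT3 or Bax-/- TrkC GFPoff arrays.

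Extra muscle NT3 gave no called member gene. In TrkC GFPon cells of mlcNT3 and wild-type mice, 0 member genes passed in either direction (0.198% of all genes higher and 0.115% lower), and 2 were higher and 2 lower at an unadjusted p under 0.05. The 92 differences ran from -0.65 to 0.46 on the log2 scale with a median of -0.159 beside -0.0548 over all genes, and 70 were below 0. All 8 genes of complex III were below 0 (-0.323 to -0.145), whereas 10 of the 12 assembly factors were above 0 (median 0.156). The 4 at an unadjusted p under 0.05 were Cox7a1 (0.46) and Cox7b2 (0.45), both dim, Ndufv1 (-0.56) and Cox6b2 (-0.65). Within the mlcNT3 TrkC GFPon pair, the mean level of the 80 subunits was 11.45 in the higher and 11.11 in the lower array, a wider gap than in wild-type mice (11.47 and 11.39), and the errors of these genes include it. In TrkC GFPoff cells 0 members passed, with 0 higher and 1 lower at an unadjusted p under 0.05 (0% of all genes higher and 0.0055% lower), and the test of the difference between populations called 0 members (0.0495% of all genes above 0 and 0.0275% below), with 1 above 0 and 0 below at an unadjusted p under 0.05.

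L1 and L5 proprioceptors did not differ detectably in these genes. The L5 minus L1 differences of the 92 genes in TrkC GFPon cells ran from -0.293 to 0.379 with a median of -0.0228, 0 passed (0.379% of all genes higher and 0.159% lower), and 0 had an unadjusted p under 0.05. All 8 genes of complex III lay below 0, by at most 0.225. In TrkC GFPoff cells the differences ran from -0.301 to 0.271 with a median of 0.0514 and 0 passed (0.181% of all genes higher and 0.033% lower), with 0 at an unadjusted p under 0.05. Atp5g1, for example, was at 11.88 and 11.66 at L1 and at 11.75, 11.74 and 11.75 at L5 in TrkC GFPon arrays, which overlapped. The test of whether the TrkC GFPon minus TrkC GFPoff difference itself changed with the level called 0 members (0.077% of all genes above 0 and 0.0495% below) and 0 at an unadjusted p under 0.05, and 72 of the 92 values were below 0, with a median of -0.0806.

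In whole adult DRG, where proprioceptors are mixed with all other cells, 1 member probe set was higher and 2 were lower at L5 than at L1 without a wheel (1.92% and 2.76% of all probe sets), and 1 was higher and 1 lower with one (3.26% and 2.17%). Without a wheel these were Uqcrq 1427880_at (-0.39 ± 0.0996, adjusted p = 0.0354), Cox8c 1443789_x_at (0.51 ± 0.126, adjusted p = 0.0311) and Atp5g1 1444874_at (-0.41 ± 0.103, adjusted p = 0.0356). None of them was the brightest probe set of its gene, so that 0 of the 92 genes were called (2.62% of all genes higher and 3.56% lower), with 1 higher and 1 lower at an unadjusted p under 0.05. The 3 calls became 0 without L1 no-wheel replicate 2 or L5 no-wheel replicate 3, and 1 without L1 no-wheel replicate 1 or 3 or L5 no-wheel replicate 2. The skeletal muscle markers averaged 7.888 in L5 no-wheel replicate 3, with 4.991 to 5.915 in the other adult groups, and their part was not tested.

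With a wheel, Cox7c 1459885_s_at was higher (0.44 ± 0.116, adjusted p = 0.0381) and Ndufb9 1436803_a_at, a complex I subunit, lower at L5 (-0.48 ± 0.128, adjusted p = 0.0387), 1 gene each way where 3.99% of all genes were higher and 3.09% lower. At an unadjusted p under 0.05, 21 genes were lower and 3 higher. The mean level of the 80 subunits was 10.57, 10.83 and 10.84 in the 3 L1 wheel arrays and 10.55, 10.74 and 10.56 in the 3 L5 wheel arrays. L1 wheel replicate 1 lay apart from the other two, in the range of the no-wheel arrays. Without it 26 member probe sets were called instead of 2, and leaving out L5 no-wheel replicate 2 gave 5. The count was 0 without L1 no-wheel replicate 2, L1 wheel replicate 2 or 3, or L5 wheel replicate 1 or 3. Whether calls over all probe sets rose or fell alike in these fits is not given here.

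Running itself called no member probe set at either level (at L1 0.0888% of all probe sets were higher and 0.153% lower, at L5 0.369% and 0.111%). At L1, 18 genes were higher and 1 lower at an unadjusted p under 0.05, the 92 differences ran from -0.261 to 0.473 with a median of 0.117 beside 0.0192 over all genes, and 0 passed (0.066% of all genes higher and 0.0605% lower). Sdha (0.40 ± 0.126, adjusted p = 0.232) and Ndufa3 (0.43 ± 0.14, adjusted p = 0.25) had arrays that did not overlap. Such non-overlap was no more frequent among members than on the whole array. Non-overlapping member probe sets made up 7.1% higher and 6.01% lower, with 8.49% and 7.61% over all probe sets. Without L1 wheel replicate 1, 20 member probe sets were called, a count given without the share of all probe sets. At L5, 5 genes were higher and 5 lower at an unadjusted p under 0.05, the median was -0.0229, and 0 passed (0.379% of all genes higher and 0.137% lower). Cox7c 1459885_s_at came nearest (0.54 ± 0.116, adjusted p = 0.0518), and Sdha was again above 0 (0.37, adjusted p = 0.16). Without L5 no-wheel replicate 1, 2 probe sets were called, and 1 without L1 no-wheel replicate 1. The difference between the effects of running at the 2 levels called 0 members, with 2 genes higher and 11 lower at an unadjusted p under 0.05 (0% of all genes passed either way).

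**Figure D5:**
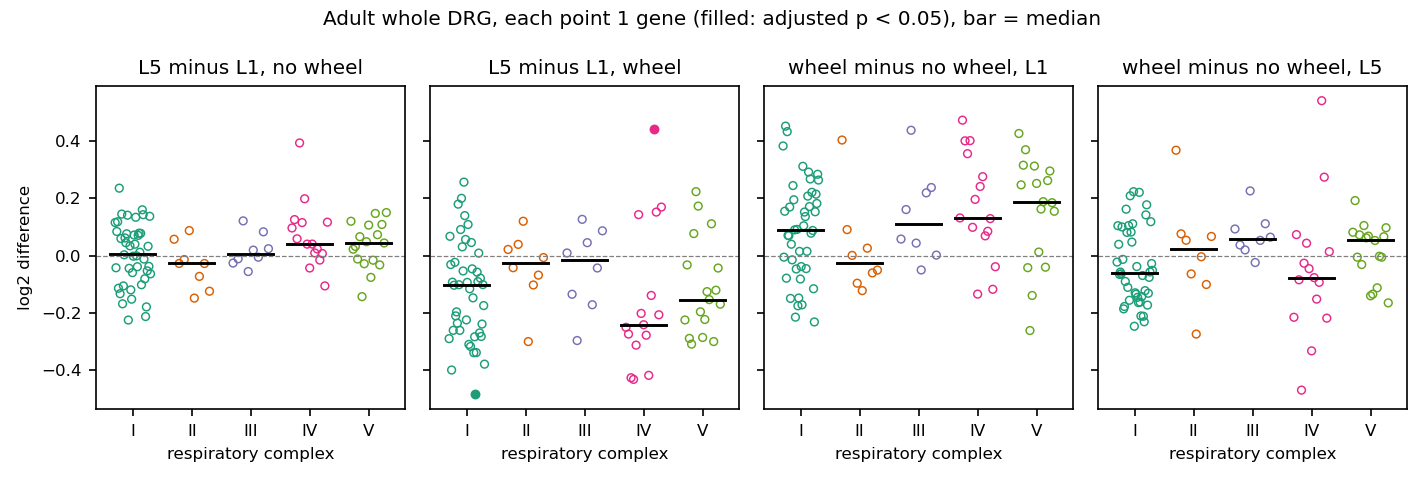
Log2 differences of the member genes by complex in adult whole DRG, for L5 minus L1 without and with a wheel and for wheel minus no wheel at L1 and at L5. Filled points passed an adjusted p of 0.05, namely Cox7c and Ndufb9 in L5 minus L1 with a wheel, and the medians of all 92 genes were 0.0232, -0.118, 0.117 and -0.0229.

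Other genes of mitochondria and of energy metabolism were counted from lists, to be read against the shares of all genes called higher and lower, which were 11.9% and 11.8% at L1, 13.1% and 13% at L5, and 8.89% and 12.5% without NT3 in TrkC GFPon cells. Of 17 genes of the citric acid cycle and the pyruvate dehydrogenase complex, which feed the chain with NADH and succinate, 11 were higher in TrkC GFPon cells at L1 and 12 at L5, and 10 were lower in NT3-/-Bax-/- than in Bax-/- TrkC GFPon cells, with 0 the other way in each. Dlat, the acetyltransferase of pyruvate dehydrogenase, differed by 1.13 ± 0.16 at L1 and 1.12 ± 0.143 at L5 and fell by 0.92 without NT3. Of 12 further respiratory chain genes, 4 were higher at L1, 5 at L5, and 6 were lower without NT3, with 0 the other way in each. Cyc1, the cytochrome c1 of complex III, differed by 0.74 at L1 and 0.55 at L5 and by -0.70 without NT3 (adjusted p = 0.0235), and Cycs, cytochrome c, by 0.56, 0.39 and -0.78, and all of these passed. Cox4i1, the common form of complex IV subunit 4, differed by 0.42 at L1 and 0.32 at L5, which passed, and by -0.40 without NT3, which did not (adjusted p = 0.129). Cox4i2, the other form, was dim, between 4.528 and 5.461 in the p0 arrays, and was not called in any of these 3 comparisons.

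Of 22 further assembly genes, 9 were higher and 1 lower at L1, 8 and 0 at L5, and 1 higher and 7 lower without NT3 in TrkC GFPon cells. Atpaf1, which assembles the catalytic head of the ATP synthase, differed by 1.69 ± 0.177 at L1 and by 1.81 ± 0.159 at L5. Of 76 mitochondrial ribosomal protein genes, 31 were higher at L1, 32 at L5, and 12 were lower without NT3, with 0 the other way in each. Of 46 cytosolic ribosomal protein genes, 0 were called at L1, 4 were lower and 0 higher at L5, and without NT3 4 were higher and 0 lower, each a share below that of all genes. Of 17 glycolytic genes, 4 were higher and 1 lower at L1 and likewise at L5, and 12 were lower without NT3, led by Aldoc (-2.73), an aldolase, and Eno2 (-1.54), the neuronal enolase.

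Among 19 regulators of mitochondrial biogenesis, 10 were higher and 1 lower at L1, 8 and 2 at L5, and 2 higher and 6 lower without NT3 in TrkC GFPon cells. Ppargc1a, the coactivator PGC-1alpha, differed by 3.07 at L1 (adjusted p = 9.56e-07) and 2.33 at L5 (adjusted p = 2.36e-06). It still differed by 2.44 between the populations of NT3-/-Bax-/- mice (adjusted p = 0.000623) and by -1.19 between NT3-/-Bax-/- and Bax-/- TrkC GFPon cells (adjusted p = 0.0428). Ppargc1b, its relative, differed by 2.71 at L1 and 1.72 at L5 and by -2.97 without NT3 (adjusted p = 0.00122). Esrra, the nuclear receptor ERR alpha, differed by 0.72, 0.66 and -1.18, and each of these passed, whereas Esrrg, ERR gamma and itself a proprioceptor marker here, differed by 5.89 and 5.86 and by -0.46 without NT3, which did not pass (adjusted p = 0.473). Gabpa, an ETS factor known as NRF2, went the other way, with -0.64 at L1 (adjusted p = 0.0431) and -0.72 at L5 (adjusted p = 0.013), and Tfam, which packages mitochondrial DNA, was higher without NT3 (0.66, adjusted p = 0.0189).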

How the data were processed

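RNA of 39 samples was measured on Affymetrix Mouse Genome arrays. The deposited intensity values are linear, one per probe set and array, and per the labels and methods the authors made them with RMA (background correction, normalization and summary over probes) in R 2.9 with the package affy and made detection calls with MAS5, which were not used here. RMA draws the arrays toward one distribution, so values are relative to all probe sets. Values had been assumed to be log2 when the tests were planned. They were linear, and their log2 was taken without a pseudocount.

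After 64 control probe sets were left out of 45101, 45037 were tested with limma 3.58.1 (lmFit and eBayes) in R 4.3.3, in 3 fits of 16 pooled p0, 11 L1 and L5 p0 and 12 adult arrays, with a mean per group and no covariate, so that all groups of a fit shared each probe set's spread. p-values were adjusted by Benjamini-Hochberg over all probe sets of a comparison, and "called" or "passed" means an adjusted p under 0.05. "Without NT3" means NT3-/-Bax-/- against Bax-/- cells. The platform annotation named 1 gene for 34945 probe sets, several for 932 and none for 9160. A gene was represented by its brightest probe set over the arrays of the fit, and 39 member genes have 1 probe set and 53 have several. Probe sets whose names end in _s_at or _x_at can match further transcripts. Another 10 probe sets that name a member among several genes were not used. Named genes are up to 4 of each complex with the largest called differences without overlap between arrays, tissue isoforms, all of complex II, and genes whose probe sets disagree. Ndufab1, Ndufb2 and Ndufs4 each had 1 probe set higher and 1 lower in NT3-/-Bax-/- against wild-type TrkC GFPon cells. The members and all gene lists were chosen with earlier results of these data known. Markers of the other cell types were summarized as mean log2 levels per array. Precision is limited by the 2 or 3 arrays of a group. Arrays give no counts, so no counting interval applies.

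Alternatives were the methods' t-test at its thresholds (p at most 0.02, fold at least 1.5) and after Benjamini-Hochberg adjustment, quantile normalization, median centring, log2(value + 32), a filter on dim probe sets, array weights, 1 probe set per gene, only the groups compared, a replicate block and leaving out each array. The fits were tested on simulated data. Promoter sequences came from a RefSeq table of GRCm38.p6, from 250 bases before to 50 bases after each start. The motifs were chosen after the expression values were seen, and the NRF1 consensus replaced a narrower NRF1 pattern that had been searched first and had matched other genes in part. Gene positions of the probe sets are not given because no genome was used here.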

Additional observations from a re-analysis of the deposited data

Results flagged for a closer look

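The effect of NT3 loss (NT3-/-Bax-/- minus Bax-/-) differed between TrkC GFPon and TrkC GFPoff cells for 4 member probe sets. The difference itself was tested. Of 183 members, 3 were called below 0 (1.64%) and 1 above (0.546%). Both shares were lower than those of all probe sets, 5.13% and 4.53%. The calls of Uqcr11 and Ndufb7 depended on single arrays, as given above. Atp5k 1434053_x_at was not the brightest probe set of its gene. The difference was -1.44 (SE 0.312, adjusted p = 0.0122) for Uqcr11 1448292_at, -1.28 (SE 0.315, adjusted p = 0.0238) for Atp5k 1434053_x_at and -1.02 (SE 0.274, adjusted p = 0.0347) for Ndufb7 1416417_a_at, so that these fell further in TrkC GFPon cells. It was 1.65 (SE 0.25, adjusted p = 0.00154) for Atp5g2 1456128_at, a dim probe set that was at 3.74 and 3.94 in Bax-/- and at 5.64 and 5.22 in NT3-/-Bax-/- TrkC GFPon arrays, and at 4.02 and 4.15 and at 4.04 and 4.01 in the TrkC GFPoff arrays. The brighter probe set of the same gene, Atp5g2 1415980_at, was at 9.13 and 8.32 and at 8.63 and 8.43 in TrkC GFPon arrays, which overlapped, and its difference between the populations had the opposite sign, -1.12 (SE 0.395), and did not pass (adjusted p = 0.104).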

How the results depend on the processing

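Values are numbers of member probe sets called, of 183. They are given without the share of all probe sets called under the same setting, so they are not read as results about the members. Comparisons of TrkC GFPon with TrkC GFPoff cells are named by genotype or level, and "without NT3" is NT3-/-Bax-/- against Bax-/-. With 1 probe set per gene, wild-type gave 20, Bax-/- 19, NT3-/-Bax-/- 6, L1 69, L5 71, NT3-/-Bax-/- against wild-type TrkC GFPon 43, without NT3 TrkC GFPon 43, Bax-/- against wild-type 0 in both populations and adult level without a wheel 0, partly because fewer probe sets were tested. With array weights, wild-type gave 81, NT3-/-Bax-/- 5, mlcNT3 46, without NT3 TrkC GFPon 30, Bax-/- against wild-type 1 (TrkC GFPon) and 2 (TrkC GFPoff), mlcNT3 against wild-type TrkC GFPoff 1, the population difference of NT3 loss 2, adult level 6 without and 14 with a wheel, and running 9 at L1 and 2 at L5. Fitting only the groups compared, which lowers the degrees of freedom, gave wild-type 70, Bax-/- 1, NT3-/-Bax-/- 3, mlcNT3 39, without NT3 3 (TrkC GFPon) and 5 (TrkC GFPoff), Bax-/- against wild-type 0 in both, the population difference 1 and adult level without a wheel 1. Quantile normalization gave mlcNT3 59, the population difference 13 and adult level with a wheel 0. Log2(value + 32) gave the population difference 12, Bax-/- against wild-type 1 and 0, and adult level with a wheel 0. The filter on dim probe sets gave Bax-/- against wild-type 1 and 0, adult level 1 without and 5 with a wheel and running at L5 2. Median centring gave Bax-/- against wild-type TrkC GFPon 1 and adult level with a wheel 5. Leaving out the NT3-/-Bax-/- arrays, chosen after seeing the data, gave mlcNT3 29.

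The methods' t-test at its own threshold gave Bax-/- 4, NT3-/-Bax-/- 3, mlcNT3 11, L1 75, L5 54, NT3-/-Bax-/- against wild-type TrkC GFPon 26, without NT3 6 and 7, mlcNT3 against wild-type 1 in both populations and adult level 0 and 0. After Benjamini-Hochberg adjustment it gave 49 at L1 and 0 for wild-type, Bax-/-, NT3-/-Bax-/-, mlcNT3, NT3-/-Bax-/- against wild-type, without NT3, Bax-/- against wild-type and adult level.

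Same-numbered arrays of L5 TrkC GFPon and TrkC GFPoff cells had correlated deviations of 0.0849 to 0.203 (-0.141 to 0.0436 for other pairs), and not every group reached 0.1 in all pairs, so numbers were not taken as pairs. A replicate block gave the population difference 7, running at L5 1 and adult level without a wheel 1, and L5 107 as before. For other counts the block moved them by less than 1.5 times. Leaving out each array in turn gave ranges of 2 to 42 for wild-type, 4 to 51 for Bax-/-, 5 to 16 for NT3-/-Bax-/-, 4 to 32 for mlcNT3, 75 to 117 for L1, 82 to 105 for L5, 31 to 87 for NT3-/-Bax-/- against wild-type (31 without wild-type TrkC GFPon replicate 1), 15 to 88 and 7 to 24 without NT3, 0 to 2 and 0 to 1 for Bax-/- against wild-type, 1 to 20 for the population difference, 0 to 3 and 0 to 26 for adult level, and 0 to 20 and 0 to 2 for running. The cause of these shifts was not tested. For single named probe sets, 16932 recomputed values included 812 that lost the threshold, 110 that gained it and 0 that reversed.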
